A study of Mus musculus with 12 samples.

Results

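The genes of the insulin-like growth factor (IGF) system were followed in 12 RNA libraries of cultured mouse synovial fibroblasts. A list of 10 symbols defines the set, and each was found once among the 53341 genes of the deposited normalized table, so the set is 10 of 53341 genes. It holds the growth factor genes Igf1 and Igf2, the non-coding neighbour of Igf2 called H19, the receptor genes Igf1r and Igf2r, and the binding protein genes Igfbp2, Igfbp3, Igfbp4, Igfbp5 and Igfbp6. The members were found by symbol, and earlier results of these data were known when the list was made. All 10 passed the filter on low values, a normalized count (a read count that the authors scaled between libraries) of at least 10 in at least 3 libraries.

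The series asks which aspects of the TNF response in these cells depend on SOXC, the transcription factor group of Sox4, Sox11 and Sox12. The cells, fibroblast-like synoviocytes from SoxC mice, are the fibroblasts that line the joint. They were grown in culture and were given an adenovirus, either Ade5CMV-Cre, which carries the recombinase that cuts out the targeted genes, or Ade5CMV-eGFP, which carries a green fluorescent protein. Each of the 4 groups has 3 libraries. SoxC_KO_TNF cells were labelled SoxC knockout, with Ade5CMV-Cre and TNF, and SoxC_KO cells had the same genotype and virus without TNF. Cells labelled control and given Ade5CMV-eGFP were cultured with TNF (control_TNF) or without it (control). TNF was the human recombinant cytokine at 10 ng/mL for 16 h. Every library thus came from virus-treated cells. The sources used here do not state the age of the mice, which exons Cre deletes, or whether libraries of 1 group are separate animals or separate cultures. The p-values below therefore cover variation among these libraries only, and that variation could be technical.

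IGF1 and IGF2 are small secreted hormones that resemble insulin and signal through the type 1 receptor, a tyrosine kinase, to the kinases PI3K and AKT. The type 2 receptor, encoded by Igf2r, has no kinase and carries IGF2 and proteins tagged with mannose 6-phosphate to the lysosome. The binding proteins hold IGFs in blood and tissue fluid, prolong their life and keep them from the receptor, until proteases such as PAPP-A, encoded by Pappa, cut them and set the hormone free. Synovial fibroblasts make IGFs and several of the binding proteins, and TNF is a main inflammatory cytokine of the arthritic joint.

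Per mm10, Igf1 lies at chr10:87858265-87937042 on the plus strand. Igf2 (chr7:142650766-142666816) and H19 (chr7:142575529-142578143) are neighbours on the minus strand of chromosome 7, in an imprinted region where the 2 genes are read from opposite parental copies, and H19 is annotated as a long intergenic RNA. The receptor genes are Igf1r (chr7:67952827-68233668, plus strand) and Igf2r (chr17:12682406-12769664, minus strand). Igfbp2 (chr1:72824503-72852474, plus strand) and Igfbp5 (chr1:72857932-72874884, minus strand) are neighbours on chromosome 1. Igfbp3 (chr11:7206086-7213923, minus strand) and Igfbp4 (chr11:99041244-99054392, plus strand) both lie on chromosome 11, and Igfbp6 lies at chr15:102144362-102149511 on the plus strand.

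The sequences shown are those of the genes on which the results turn. The Igfbp3 promoter is shown because Igfbp3 was the member that rose with TNF, and the Igfbp5 promoter because it was the one promoter among those of the members with a match to the kappa B consensus, the site of the NF-kappa B factors that TNF activates. Both run 5′ to 3′ on the gene's strand from 250 bases before the start to 50 bases from it, per RefSeq on GRCm38.p6 (chr11:7213874-7214173 and chr1:72874816-72875115, both minus strand). Capitals mark the kappa B match, which begins 196 bases before the Igfbp5 start and reads as the consensus on the opposite strand. The 2 mature microRNAs that are cut out of the H19 transcript are shown with their seeds, bases 2 to 8, in capitals, also per RefSeq. Their seeds differ.
Igfbp3 promoter: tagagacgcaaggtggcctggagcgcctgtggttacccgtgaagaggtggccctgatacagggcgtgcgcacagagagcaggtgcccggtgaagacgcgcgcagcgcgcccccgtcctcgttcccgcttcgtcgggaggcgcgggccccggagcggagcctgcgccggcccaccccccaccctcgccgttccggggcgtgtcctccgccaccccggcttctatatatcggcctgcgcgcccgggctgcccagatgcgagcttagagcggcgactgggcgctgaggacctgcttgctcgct
Igfbp5 promoter: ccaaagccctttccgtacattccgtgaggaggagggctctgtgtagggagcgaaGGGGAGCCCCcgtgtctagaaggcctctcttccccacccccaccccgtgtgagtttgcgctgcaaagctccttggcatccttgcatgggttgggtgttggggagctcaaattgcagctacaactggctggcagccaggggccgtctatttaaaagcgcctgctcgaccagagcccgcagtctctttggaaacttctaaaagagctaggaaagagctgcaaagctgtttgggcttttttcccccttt
mmu-miR-675-5p: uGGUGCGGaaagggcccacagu
mmu-miR-675-3p: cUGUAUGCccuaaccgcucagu

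The promoter table held 13 entries for 9 of the 10 members, with none for H19. The kappa B consensus was found on either strand in 4.53% of all 32544 promoters of this length, and among the 13 entries in that of Igfbp5 alone. A SOX motif, AACAAAG, was found in 5.85% of all promoters and in none of the 13. The TATA box letters TATAAA were found on either strand in 13.6% of all promoters. They stood on the gene's strand in Igfbp4, 28 bases before its start. In Igfbp6 they stood on the opposite strand, read as TTTATA on the gene's strand, from 148 bases before the start. The Igfbp3 window held no exact match to these motifs. Near matches, such as the letters TATATAT before the Igfbp3 start, were not counted. The G and C share was 71.7% in the Igfbp3 window and 56.3% in that of Igfbp5.

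The libraries had normalized totals of 19.6 to 23.1 M and a rough estimate of 8.14 to 13.7 M read pairs. All 10 fibroblast markers were above 0 in every library. Summed markers of fibroblasts, of lining synoviocytes and of chondrocytes were lower with TNF in all 6 pairs of the same replicate number. Fibroblast sums ranged over 236615 to 598430 with TNF and 322445 to 707726 without, lining sums over 7103 to 17964 with TNF and 9715 to 21166 without, and chondrocyte sums over 1972 to 4039 with TNF and 2605 to 5931 without. Of the 8 chondrocyte markers, Acan was at 0 in 5 libraries and Col2a1 above 0 in all 12. Macrophage sums were higher with TNF in 5 of the 6 pairs. The part of these markers in the TNF differences given below, those of H19, Igf1r, Pappa and Grb10 included, was not tested. The targeted genes checked the labels in part. Sox4 stood at 1020.1, 1086 and 601 normalized counts in SoxC_KO_TNF and 1432, 1433 and 548 in SoxC_KO, against 1697, 3646 and 1625 in control_TNF and 4238, 4143 and 1857 in control, in the order of the replicate numbers. The knockout libraries lay below those of controls for Sox4 with and without TNF, and for Sox11 and Sox12 with TNF, while Sox11 and Sox12 overlapped between SoxC_KO and control. The 4 libraries numbered 3, 1 in each group, stood apart from the other 8 on the first principal component, which held 51.6% of the variance.

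Per kb of summed exon length, 4 of the 5 binding protein genes had the highest mean levels. Igfbp4 led with a mean of 5696 normalized counts per kb over the 12 libraries and a range of 3561 to 8994, above every library's value of each other member. Igfbp6 (1732, range 939 to 3426), Igfbp3 (1361, 962 to 1872), Igfbp2 (718, 323 to 1282), Igf2r (540.4, 270.3 to 866) and Igfbp5 (453, 184 to 699) followed. Among these 5, the range of each gene overlapped that of the next, so neighbours in this order were not set apart. Igfbp6 and Igfbp3, however, lay in every library above all values of Igf2r and Igfbp5.

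Igf1r, the signalling receptor, and Igf1, its ligand, stood lower and level with each other, at mean levels of 108 (range 44.0 to 161) and 107 (51.0 to 155) normalized counts per kb. H19 had a mean of 60.2 per kb, with a range of 43.7 to 83.8 that overlapped that of Igf1. Igf2 was lowest at 11.2 per kb (6.64 to 14.4), below every other member in every library. The level of Igf2 is uncertain, because a gene listed as AC013548.1 overlaps it on the same strand and had a mean of 89.6 normalized counts, against 64.0 for Igf2, before any scaling to length. Which reads were given to which of them is not stated in the sources used here. The 2 genes varied together, with a Pearson r of 0.906 over the 12 libraries.

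**Figure D1:**
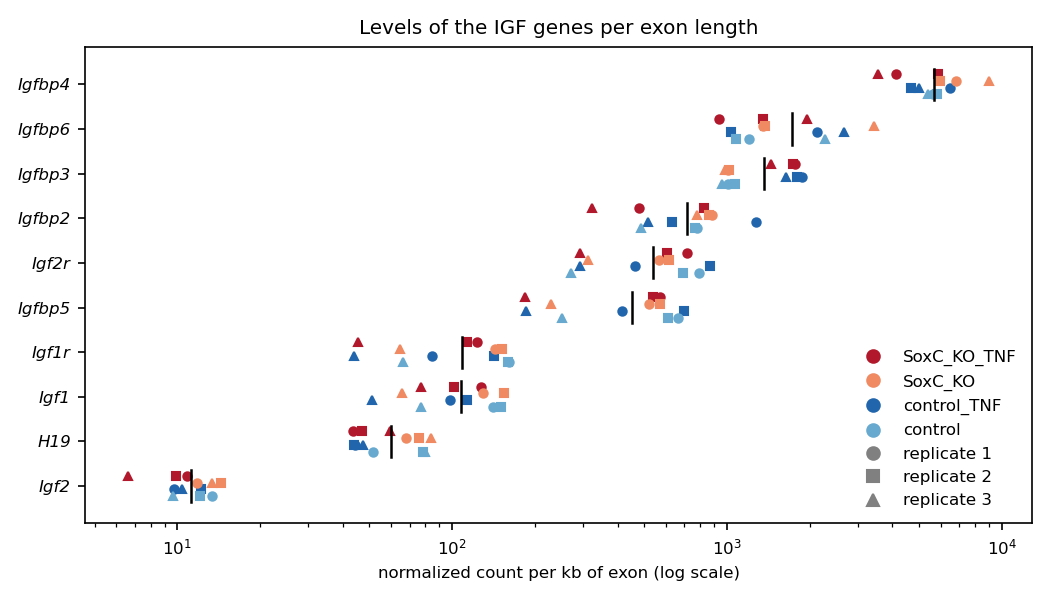
Level of each IGF gene in each of the 12 libraries, as normalized count per kb of summed exon length on a log axis, with colours for groups, shapes for replicate numbers and a black line at the mean of all libraries. Igfbp4 is highest at a mean of 5696 per kb and Igf2 lowest at 11.2 per kb.

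Igfbp3, which encodes the main carrier of IGFs in blood, was the member that rose with TNF. Its normalized count was 5544, 5434 and 4541 in SoxC_KO_TNF, against 3157, 3197 and 3083 in SoxC_KO. In the controls it was 5858, 5622 and 5147 in control_TNF, against 3161, 3352 and 3010.2 in control. All 6 TNF libraries lay above all 6 libraries without TNF, as did those of 1.48% of the 18139 genes tested, and 0.943% had all 6 below. The libraries without TNF were close to each other in both genotypes, while among those with TNF the libraries numbered 3 were lowest. The share of genes with all TNF libraries above was 6.43% in knockout cells and 4.6% in control cells. Group means were 5173 ± 550.2, against 3146 ± 57.7, in knockout cells and 5542 ± 362, against 3175 ± 172, in control cells (SD, n = 3 each).

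Averaged over both genotypes, the TNF effect on Igfbp3 was a log2 change of 0.76 (SE 0.11, 95% interval 0.52 to 0.99, adjusted p = 0.00463 in limma, a linear model fitted to all genes), a 1.69-fold rise on the scale of log2(normalized count + 1). A gene is called here at an adjusted p under 0.05. Igfbp3 was thus 1 of 10 members called higher, where 0.877% of all genes were called higher and 0.292% lower, and no member was called lower. With the replicate number as a block, which compares libraries of the same number, the SE fell to 0.082 and the adjusted p to 0.000144. In bulk RNA, more cells of a kind and more RNA per cell cannot be told apart.

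Within each genotype, Igfbp3 with all 12 libraries and the filter above passed with the block and not without it. With a mean of at least 50 required, it passed without the block in control cells (limma adjusted p = 0.0432). In knockout cells the log2 change was 0.71 (SE 0.15, limma adjusted p = 0.107, and 0.00669 with the block). In control cells it was 0.80 (SE 0.15, limma adjusted p = 0.0610, and 0.00293 with the block). With the filter of at least 10 in at least 3 libraries and no block, no member was called in either genotype. Of all genes, 0.243% and 0.0496% were called higher and lower in knockout cells, and 0.287% and 0.0331% in control cells. At an unadjusted p under 0.05, 4 members passed in knockout cells (Igfbp3, H19, Igfbp4 and Igf2) and 2 in control cells (Igfbp3 and H19), as did 7.38% and 4.21% of all genes. With the block Igfbp3 was the 1 member called in each genotype, higher in both, against 1.78% of all genes called higher and 1% lower in knockout cells, and 1.18% higher and 0.529% lower in control cells. The blocked call was kept in 10 of 12 fits that left out 1 library in knockout cells, being lost without replicate 1 of SoxC_KO_TNF or of SoxC_KO (adjusted p up to 0.0557), and in 12 of 12 in control cells. Without the 4 libraries numbered 3, Igfbp3 also passed with no block, at an adjusted p of 0.0120 in knockout cells and 0.00916 in control cells.

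The block joins libraries of 1 number over all 4 groups. Pairing was accepted for TNF and unstimulated libraries of the same genotype but not between SoxC_KO_TNF and control_TNF, though the correlations behind this choice overlapped. A block within each genotype, added after the other fits were seen, uses only pairs of TNF and unstimulated libraries of the same genotype. It called 1.96% of all genes higher and 1.16% lower in the average TNF effect, and of the members Igfbp3 alone (adjusted p = 0.00233, with 0.0423 in knockout cells and 0.0268 in control cells).

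Liver transcripts were high in 2 of the TNF libraries. The 12 hepatocyte markers, all above 0 in both, summed to 4969.5 normalized counts in SoxC_KO_TNF replicate 1 and 702 in control_TNF replicate 2, against 85.8 or less in the other 10 libraries. Igfbp3 in these 2 libraries was at 5544, the highest of SoxC_KO_TNF, and at 5622, both within the range of the other TNF libraries. Igfbp1, the binding protein gene of liver, was listed at 0 in all 12. The part of liver transcripts in the Igfbp3 values was not tested. Without these 2 libraries the log2 change of Igfbp3 was 0.73, with a limma adjusted p of 0.0656, or 0.75 with an adjusted p of 0.00377 under the block. Skeletal muscle markers summed to 1687 in SoxC_KO_TNF replicate 1 and 1467 in SoxC_KO replicate 1, with 1554 in SoxC_KO replicate 3 and 515 to 1104 elsewhere. Without both libraries of replicate 1 in the knockout, and with SoxC_KO replicate 3 kept, the change was 0.73, with a limma adjusted p of 0.0822.

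**Figure D2:**
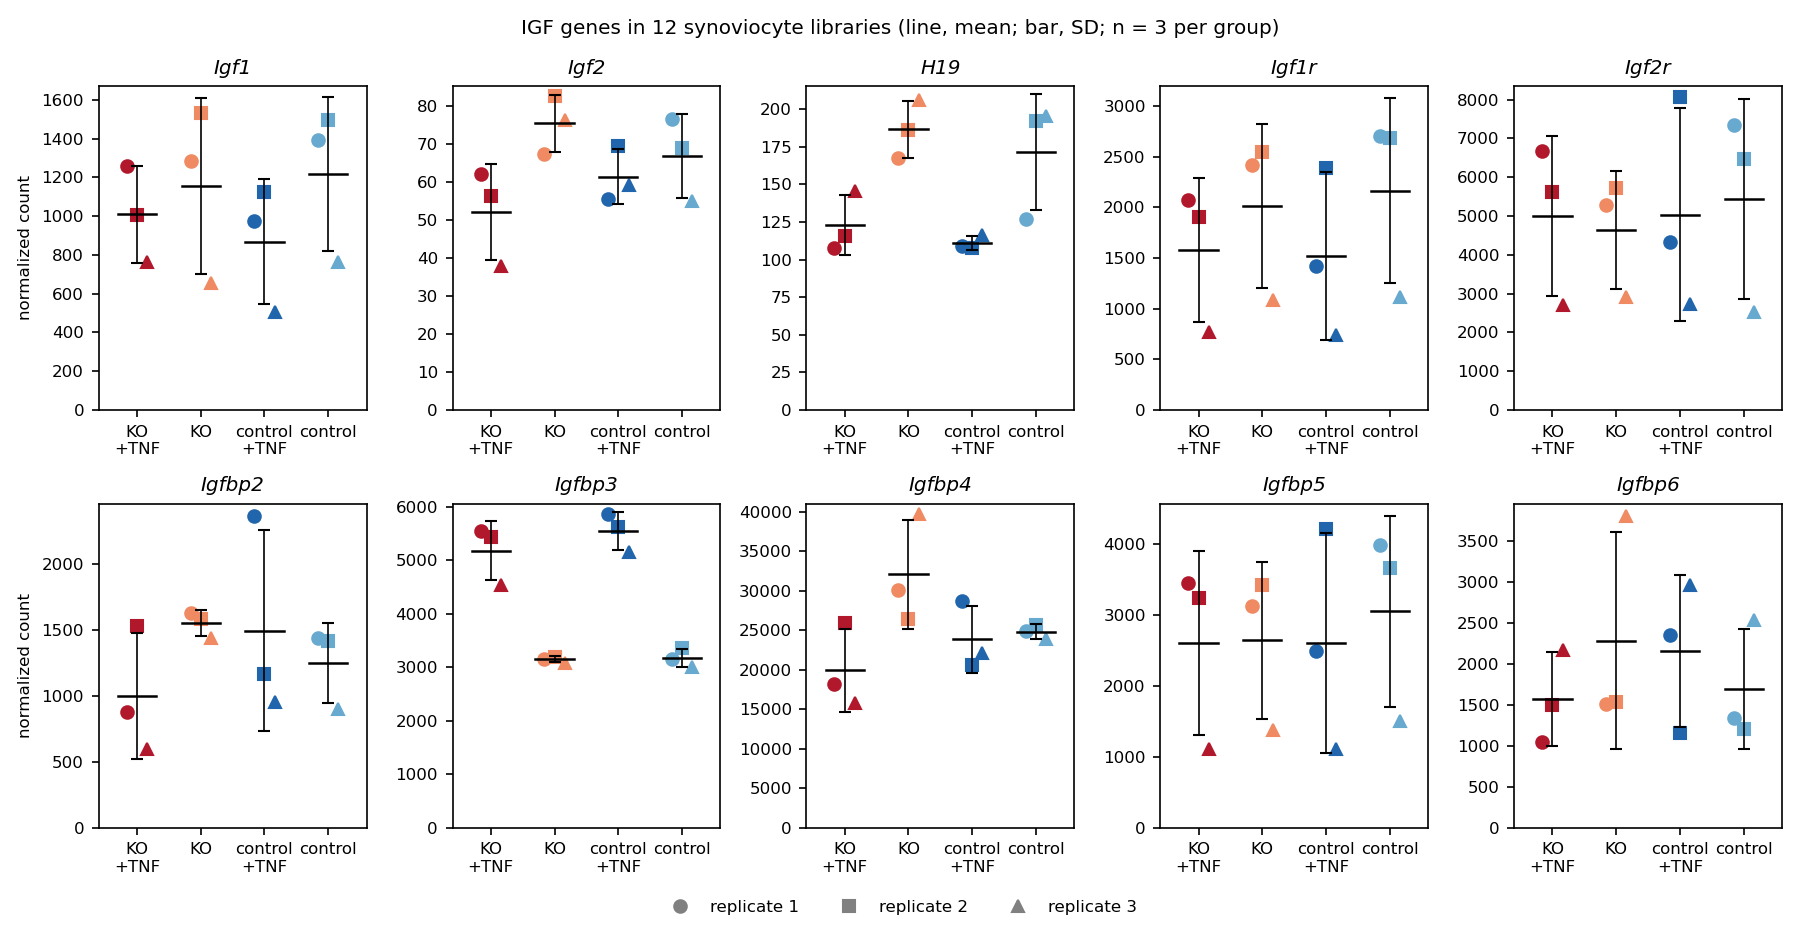
Normalized count of each of the 10 genes in every library, by group (knockout with TNF, knockout, control with TNF, control), with the mean as a line and the SD as a bar (n = 3 per group) and shapes for replicate numbers. Igfbp3 separates by TNF, at 4541 to 5858 with TNF and 3010.2 to 3352 without, while Igf1r, Igf2r and Igfbp5 are lowest in the triangles of replicate 3.

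Of the growth factor genes, Igf1 was at 1259.6, 1006 and 762 normalized counts in SoxC_KO_TNF, against 1285, 1533 and 653 in SoxC_KO. Its values in controls were 977, 1123 and 505 in control_TNF, against 1395, 1498 and 765 in control. The groups overlapped in both genotypes, and Igf1 was lower with TNF in 5 of 6 pairs of the same replicate number, SoxC_KO_TNF replicate 3 being the exception. The average log2 change was -0.32 (SE 0.29, limma adjusted p = 1.0, and 0.158 with the block), so the difference did not pass.

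Igf2, the fetal growth factor, stood at 62.1, 56.4 and 38.0 in SoxC_KO_TNF, against 67.5, 82.7 and 76.4 in SoxC_KO. All 3 TNF libraries of the knockout thus lay below, as for 6.4% of all genes. In control_TNF Igf2 was 55.5, 69.6 and 59.3, against 76.7, 69.1 and 55.0 in control, and these overlapped. The log2 change with TNF in knockout cells was -0.55 (SE 0.25, limma adjusted p = 0.676). When the counts of Igf2 and the overlapping AC013548.1 were summed, that change was -0.48 (SE 0.26, adjusted p = 0.761), and the average TNF effect was -0.32 (adjusted p = 0.839). Igf2 thus passed in no comparison by either count.

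H19, the maternally expressed non-coding RNA next to Igf2, was lower with TNF in all 6 pairs of the same replicate number. The share of all genes lower in all 6 such pairs is not given here, for H19 or for the genes below. H19 was at 108, 115 and 146 normalized counts in SoxC_KO_TNF, against 168, 186 and 206 in SoxC_KO. In control_TNF it was at 109, 108 and 116, against 127, 192 and 195 in control. In each genotype all 3 TNF libraries lay below the 3 without TNF, as for 6.4% of all genes in knockout cells and 4.11% in control cells. Control replicate 1 was the lowest library without TNF and lay below SoxC_KO_TNF replicate 3.

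The average log2 change of H19 with TNF was -0.60 (SE 0.16, limma adjusted p = 0.128), close in knockout cells (-0.61) and control cells (-0.60). With the replicate block the SE was 0.13 and the adjusted p 0.0155, so H19 passed in that fit. With the block within each genotype it did not (SE 0.14, adjusted p = 0.0548). With the block over all groups it was 1 of 2 members called lower, where 2.18% of all genes were called lower and 3.01% higher. The blocked call was lost when any 1 of control_TNF replicate 3, SoxC_KO replicate 1, control replicate 2 or control replicate 3 was left out (8 of 12 kept, adjusted p 0.0171 to 0.0770), and without the 4 libraries numbered 3 (adjusted p = 0.116) or the 2 with liver transcripts (0.0839). Mir675, the gene of the microRNAs shown above, was listed at 0 in every library. Mature microRNAs carry no poly(A) tail, by which these libraries were selected. Mir675 also lies inside H19 on the same strand, and which reads were given to which of them is not stated in the sources used here. Why Mir675 was listed at 0 was not tested.

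Igf1r, the receptor that signals for both growth factors, was lower with TNF in all 6 such pairs as well, though the groups overlapped. Its normalized count was 2068, 1905 and 766 in SoxC_KO_TNF, against 2414, 2542 and 1085 in SoxC_KO. In control_TNF it was 1423, 2387 and 738, against 2701, 2681 and 1112 in control. The libraries numbered 3 were lowest in every group, by more than the TNF difference. The average log2 change was -0.47 (SE 0.39, limma adjusted p = 1.0) without the block and passed with it (SE 0.11, adjusted p = 0.0333), but not with the block within each genotype (SE 0.12, adjusted p = 0.0767). The call was kept in 2 of 12 fits that left out 1 library, without SoxC_KO_TNF replicate 1 or control_TNF replicate 2, the 2 libraries with liver transcripts, and lost in the other 10 (adjusted p up to 0.126). Without both of these the blocked log2 change was -0.60 (adjusted p = 0.0155), and without the 4 libraries numbered 3 it was -0.43 (adjusted p = 0.240).

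Igf2r, the clearing receptor for IGF2, showed no difference with TNF beyond its spread. It stood at 6682, 5618 and 2712 in SoxC_KO_TNF, against 5274, 5728 and 2913 in SoxC_KO, and at 4322, 8065 and 2724 in control_TNF, against 7341, 6460.2 and 2516 in control. The average log2 change was -0.020, with a 95% interval of -0.82 to 0.78, or -0.33 to 0.29 with the block. Its antisense partner Airn, the imprinted RNA known to silence the paternal Igf2r copy, had a mean of 51.8 normalized counts, against 5029.7 for Igf2r, before any scaling to length. Whether counting used strand is not stated, so reads of the 2 genes may not be fully told apart.

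**Figure D3:**
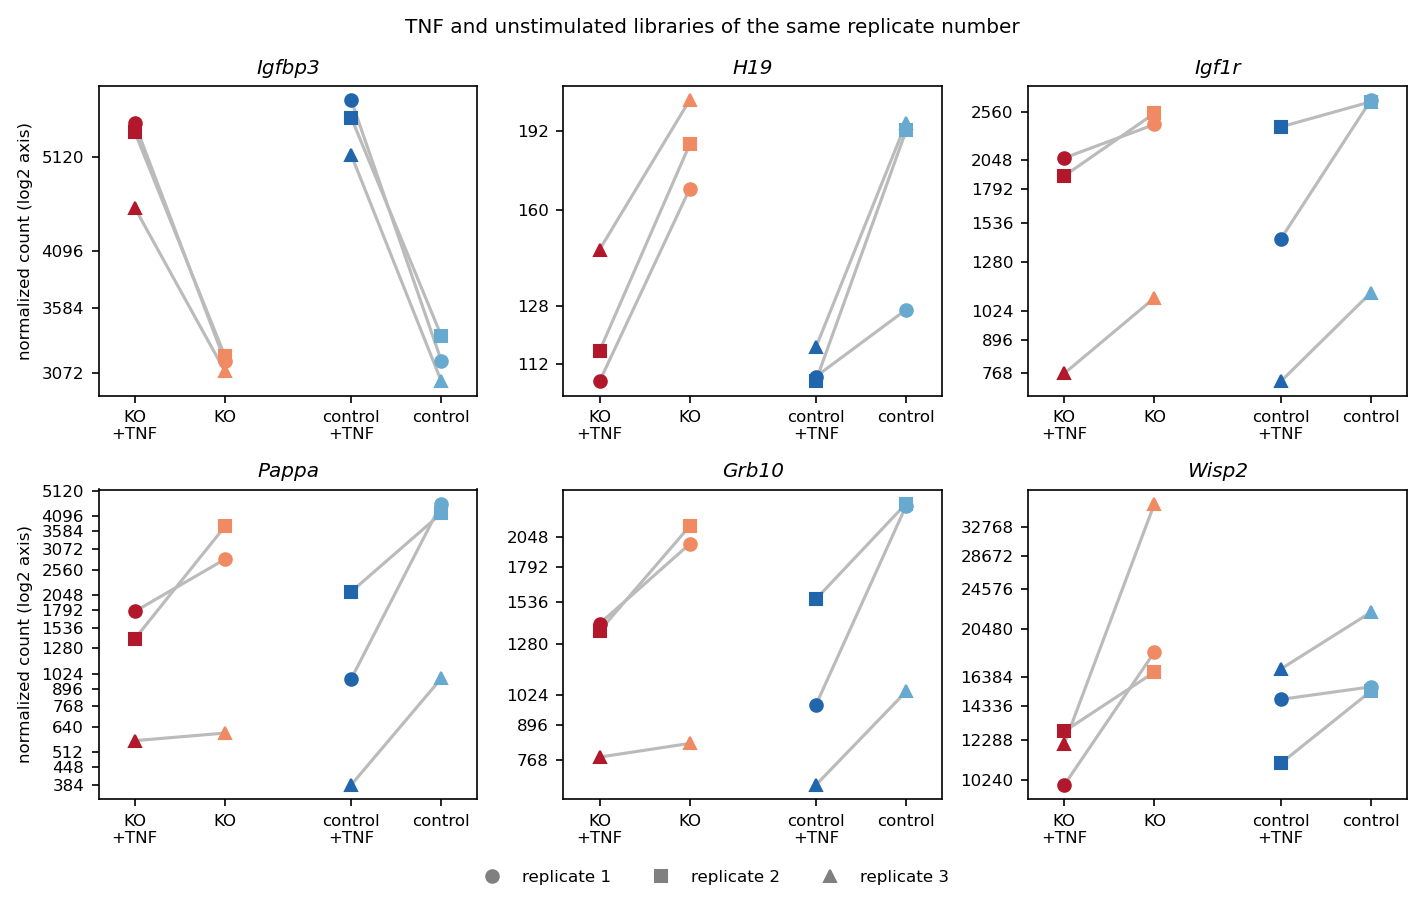
Normalized counts (log2 axes, not from 0) of 3 IGF genes and of Pappa, Grb10 and Wisp2, with TNF libraries left of those without and a line joining libraries of the same replicate number. Igfbp3 is higher with TNF on all 6 lines, and H19 and Igf1r are lower on all 6.

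Igfbp4, which encodes a binding protein that PAPP-A cuts, had its highest group mean in SoxC_KO. Its normalized count was 18165, 25863 and 15726 in SoxC_KO_TNF, against 30101, 26386 and 39718 in SoxC_KO. It was 28644, 20656 and 22171 in control_TNF, against 24909, 25697 and 23826 in control. The knockout libraries with TNF all lay below those without it, as for 6.4% of all genes, whereas the controls overlapped. The log2 change with TNF was -0.70 in knockout cells (SE 0.22, limma adjusted p = 0.383, and 0.106 with the block) and -0.072 in control cells (SE 0.22, adjusted p = 0.998).

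Igfbp2, whose protein binds IGF2 with preference, was at 881, 1529 and 596 in SoxC_KO_TNF, against 1631, 1588 and 1442 in SoxC_KO. It was at 2367, 1165 and 955 in control_TNF, against 1439, 1419 and 903 in control, with control_TNF replicate 1 the highest of all 12. The 3 SoxC_KO libraries were close together and the TNF groups were spread. With TNF the log2 change was -0.74 in knockout cells (limma adjusted p = 0.746) and 0.17 in control cells (0.998), neither of which passed.

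Igfbp5, the neighbour of Igfbp2 whose protein also binds the extracellular matrix, had 3444, 3238 and 1106 normalized counts in SoxC_KO_TNF, against 3125, 3419 and 1371 in SoxC_KO. Its values were 2495, 4200.2 and 1116 in control_TNF, against 3987, 3653 and 1511 in control. The spread between replicate numbers was wider than any difference between groups. The average TNF effect was -0.19 (95% interval -1.13 to 0.74, or -0.45 to 0.068 with the block, limma adjusted p = 0.513 with it).

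Igfbp6, another binding protein gene with preference for IGF2, had 1044, 1499.5 and 2175 in SoxC_KO_TNF, against 1509.8, 1529 and 3809 in SoxC_KO. It had 2357, 1153 and 2966 in control_TNF, against 1339, 1205 and 2531 in control. Here the libraries numbered 3 were highest in each group, the reverse of Igfbp5. The log2 change with TNF was -0.46 in knockout cells and 0.33 in control cells, with limma adjusted p-values of 0.835 and 0.998.

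Over the 10 members the median log2 change with TNF was -0.42 in knockout cells and -0.11 in control cells, against -0.0087 and -0.018 over all genes tested. The median of the average TNF effect was -0.30, against -0.0011 over all genes. Of the 10 average changes 9 were negative, though those of Igf2r, Igfbp5 and Igfbp6 turned positive under some alternatives. Of these 9, H19 and Igf1r passed with the block and the other 7 in neither fit. The share of all genes with a negative average change is not given here. Some of the 9 varied together over the libraries, such as Igf1r and Igfbp5 (Pearson r = 0.972), so they are not separate results.

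**Figure D4:**
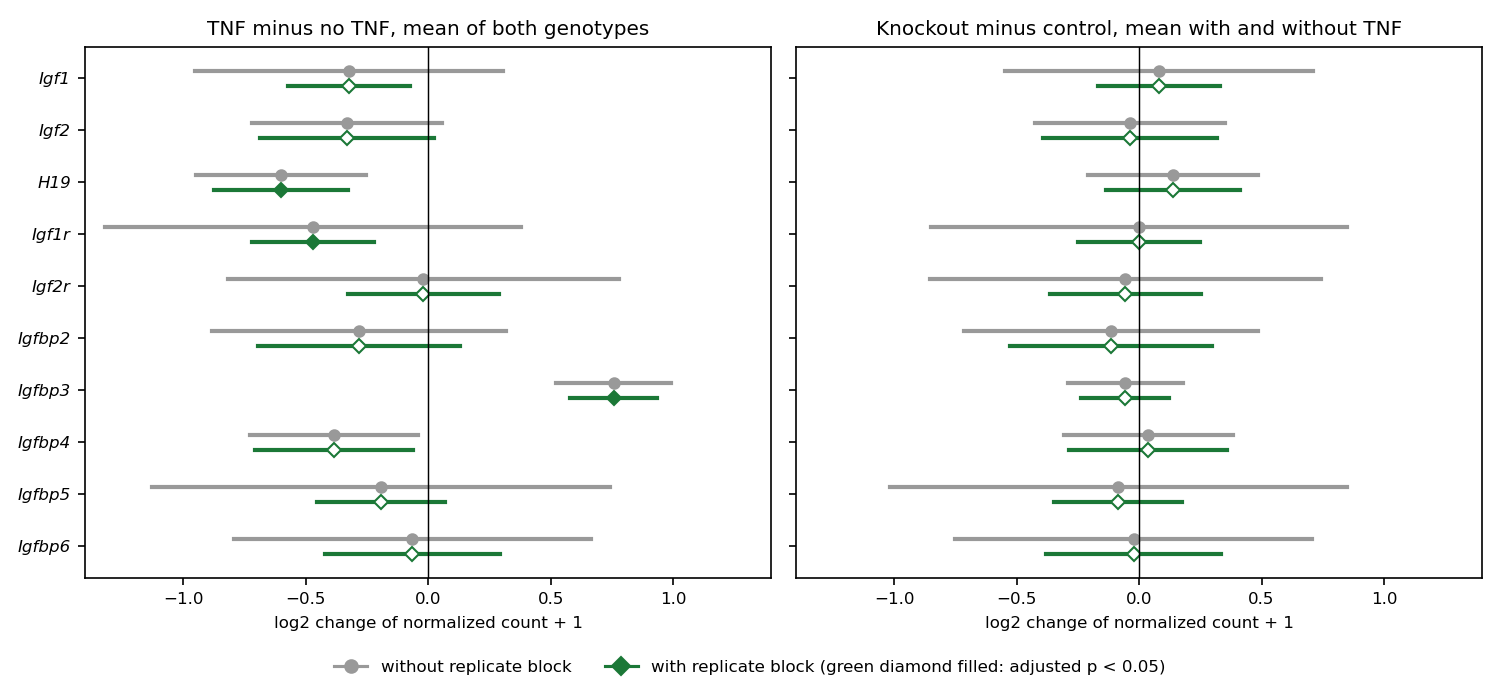
Log2 change of each IGF gene with its 95% interval, for TNF minus no TNF (left) and knockout minus control (right), each averaged over the other factor, from limma without (grey) and with (green) the replicate block. Igfbp3 lies at 0.76 in the TNF panel, H19 at -0.60 and Igf1r at -0.47, and no knockout change passed the test.

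The knockout moved no member past the threshold. In limma, 0 of 10 members and 0 of 18139 genes were called between SoxC_KO_TNF and control_TNF, between SoxC_KO and control, and in the test of whether the TNF effect differed between the genotypes, that is 0% of all genes. Sox4, a targeted gene, was thus not called either, though its knockout libraries lay wholly below those of controls with and without TNF. The lack of calls therefore does not show that the knockout left the members unchanged. At an unadjusted p under 0.05, 233, 176 and 273 genes passed in these 3 tests, and none of the members did. With the block no member was called either. Over all genes the block gave 0 calls in each of the 3 and 1 (0.00551%, lower) in the average knockout effect, with 1160, 826 and 3123 genes at an unadjusted p under 0.05, of the members Igfbp2 and Igfbp6 in the interaction.

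Igfbp3 was at nearly the same level in both genotypes, with an average knockout effect of -0.057 on the log2 scale and a 95% interval of -0.29 to 0.18. The interaction, the TNF effect in knockout cells minus that in control cells, was -0.091 for Igfbp3 (SE 0.21, limma adjusted p = 0.915) and -0.0083 for H19 (SE 0.32). For Igf1r the average knockout effect was -0.0010, with an interval of -0.85 to 0.85, or -0.25 to 0.25 with the block.

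Without TNF, Igfbp2 and Igfbp4 were higher in every SoxC_KO library than in every control library, as for 2.39% of all genes. Igfbp4 averaged 32068 ± 6881 in SoxC_KO and 24811 ± 939 in control (SD, n = 3 each), a log2 difference of 0.35 (limma adjusted p = 0.999). Igfbp2 averaged 1554 ± 99.1 in SoxC_KO and 1254 ± 304 in control, a log2 difference of 0.34 (limma adjusted p = 0.999). With TNF the differences had the other sign, -0.28 for Igfbp4 and -0.57 for Igfbp2, and the libraries overlapped. Between the TNF groups all 10 members overlapped, where 2.82% of all genes lay wholly above and 2.34% wholly below in SoxC_KO_TNF, and no member lay wholly below in SoxC_KO, where 1.98% of all genes did.

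The interaction was negative for these 2 genes and for Igfbp6. It was -0.91 for Igfbp2 (SE 0.55), -0.78 for Igfbp6 (SE 0.67) and -0.63 for Igfbp4 (SE 0.31). The limma adjusted p-values were 0.884, 0.884 and 0.884, or 0.284, 0.284 and 0.296 with the block, so none passed.

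Replicate number took most of the variance of 5 members. Of the sum of squares of log2 values over the 12 libraries, replicate number took 92.1% for Igfbp5, 86.9% for Igf2r, 82.9% for Igf1r, 77.0% for Igf1 and 68.7% for Igfbp6. The median over all genes was 47.1%. For Igfbp3 the share was 3.15%, with 94.6% for TNF, and for H19 it was 17.0%, with 70.3% for TNF, where the median share of TNF over all genes was 3.91%.

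The libraries numbered 3 stood apart in these members. Igf1r was at 738 to 1112 normalized counts in the 4 libraries numbered 3, against 1423 to 2701 in the other 8. Igfbp5 was at 1106 to 1511, against 2495 to 4200.2. For Igf2r the ranges were 2516 to 2913 and 4322 to 8065. Igf1 showed the same, at 505 to 765, against 977 to 1533, so that for these 4 members each library numbered 3 lay below all the other 8, as for 13.7% of all genes.

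The mean log2 difference between number 3 and the mean of numbers 1 and 2 in the same group was -1.43 for Igfbp5 (-1.59 to -1.25 over the 4 groups), -1.29 for Igf1r (-1.37 to -1.19), -1.16 for Igf2r (-1.45 to -0.92) and -0.91 for Igf1 (-1.10 to -0.56). No member lay wholly above in the libraries numbered 3, as 13.8% of all genes did. Igfbp6 ran the other way, at 0.99 (0.80 to 1.33), though control_TNF replicate 1 lay within its number 3 range. The differences of Igfbp2 (-0.64), Igf2 (-0.26), Igfbp3 (-0.15), Igfbp4 (-0.047) and H19 (0.26) were smaller.

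Across genes, this difference fell with exon length. The Spearman correlation with summed exon length was -0.438 over 18112 genes, which share the same 12 libraries and are not independent replicates, and that with the G and C share of the transcript was 0.441. Genes under 1000 bases had a median difference of 0.39, and genes over 8000 bases one of -0.81. Igf1r (16791 bases), Igf1 (9904) and Igf2r (9308) are among the long genes and lay near the values of their length class, at its 25.6, 45.2 and 31.2 percentiles. Igfbp5 (6006 bases) lay at the 6.9 percentile of its class and Igfbp6 (1112 bases) at the 86.2. Igfbp2 (1847 bases) lay at the 12.65 percentile of its class, with a difference of -0.64 where the class median was 0.38. A further fit, chosen after seeing the data, removed the trend with length and GC from each library and kept the block. In the average TNF effect it called 1698 of the 18112 genes, and of the members Igfbp3, H19, Igf1 and Igf1r. Igfbp3 there had a log2 change of 0.79 and a limma adjusted p of 1.70e-06.

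Marker sums moved with the same split. Macrophage markers summed to 3611 to 4256 normalized counts in the libraries numbered 3, against 1627 to 2310.5 in the other 8. Markers of the lining fibroblast summed to 7103 to 11696, against 12557 to 21166, and adipocyte markers to 1009.5 to 1132.6, against 519 to 944. Endothelial markers summed to 489 to 559, against 369 to 438, the fibroblast markers themselves to 236615 to 457005, against 474426 to 707726, and chondrocyte markers to 1972 to 4327, against 3699 to 5931. All 8 endothelial markers were above 0 in every library, as were 8 of the 10 macrophage markers. Ptprc and Mrc1 were at 0 in 1 library each. These were replicate 3 of SoxC_KO and replicate 3 of control, where the macrophage sums were high. Lyz2 had the highest mean of the macrophage markers, at 1340 normalized counts, against 474 for Cd14, the next highest. Lyz2 was at 2172 to 2438 in the libraries numbered 3, against 677 to 1014 in the other 8. Of the 6 adipocyte markers, Fabp4 and Plin1 were above 0 throughout, and Adipoq was at 5.92 or less. Lep and Cidec were at 0 in 11 libraries each, and Retn in 8. The adipocyte sum was almost all Fabp4, with a mean of 765 normalized counts, against 11.9 for Plin1, the next highest. The part of any of these in the levels of the IGF genes was not tested.

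**Figure D5:**
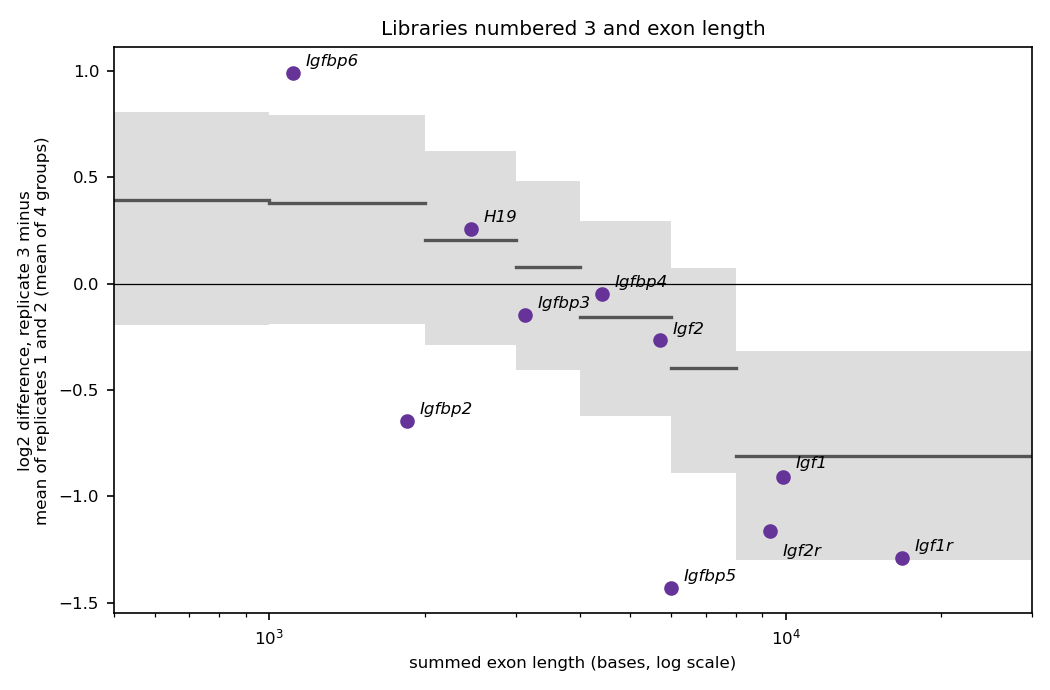
Log2 difference of the libraries numbered 3 from the mean of numbers 1 and 2 in the same group (mean of 4 groups), against summed exon length on a log axis, with the median (line) and the middle 50 percent (grey) of all genes in each length class. Igf1r, Igf1 and Igf2r lie in the band of long genes, Igfbp5 lies below its band at -1.43, while Igfbp2 lies below its own at -0.64 and Igfbp6 above its own at 0.99.

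Some members varied together over the libraries, on the log2 scale. Igf1r and Igfbp5 had a Pearson r of 0.972, Igf2r and Igfbp5 one of 0.972 and Igf1 and Igf1r one of 0.939, while Igf2r and Igfbp6 had -0.899. H19 and Igfbp3 had -0.881. These describe 12 libraries that share the number 3 split and the TNF groups, and carry no test.

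Among 11672 genes with a mean of at least 50, those most like Igfbp3 over the 12 libraries on the log2 scale were Cx3cl1 (r = 0.992, rho = 0.937), Mmp9 (r = 0.987, rho = 0.895) and Tlr2 (r = 0.974, rho = 0.825), where rho is Spearman's. Cx3cl1 encodes a chemokine, Mmp9 a gelatinase and Tlr2 a pattern receptor. Those most like H19 were Adra1b (r = 0.920, rho = 0.930), Rasl11a (r = 0.911, rho = 0.944) and Mpp1 (r = 0.905, rho = 0.895). For Igf1r they were Slc2a13 (r = 0.992, rho = 0.993), Col12a1 (r = 0.992, rho = 0.993) and Zmynd8 (r = 0.992, rho = 0.951). Igf2r was matched most closely by Dync1h1 (r = 0.996, rho = 0.993), Trrap (r = 0.994, rho = 0.944) and Ubr4 (r = 0.993, rho = 0.972).

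The genes most like Igfbp5 were Zfhx3 (r = 0.992, rho = 0.895), Mast4 (r = 0.991, rho = 0.986) and Tmem131 (r = 0.990, rho = 0.972). For Igf1 they were Acvr2a (r = 0.985, rho = 0.972), Jarid2 (r = 0.984, rho = 0.979) and Emb (r = 0.983, rho = 0.979), and for Igfbp6 Akt1s1 (r = 0.992, rho = 0.972), Drap1 (r = 0.991, rho = 0.958) and Gadd45gip1 (r = 0.990, rho = 0.972). Igfbp4 was most like H1fx (r = 0.965, rho = 0.860), Smad6 (r = 0.958, rho = 0.923) and Plod3 (r = 0.954, rho = 0.923). Igfbp2 was most like Tk1 (r = 0.962, rho = 0.895), Spc24 (r = 0.961, rho = 0.867) and Tbx2 (r = 0.950, rho = 0.923), of which Tk1 and Spc24 act in cell division. The closest to Igf2 were Slc12a7 (r = 0.937, rho = 0.902), Ctc1 (r = 0.934, rho = 0.846) and Tpcn2 (r = 0.931, rho = 0.867).

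The other genes of the pathway were read from 6 lists, and with all 12 libraries and no block or length correction none of their members passed in any comparison. Of 9 further binding protein and CCN genes in the table, 6 were tested. Igfbp7, a gene of a low-affinity IGF binding protein, had the highest mean normalized count (not scaled to length), at 34479 ± 3875 in SoxC_KO_TNF and 38276 ± 9578 in SoxC_KO, and at 39103 ± 8052 in control_TNF and 30151 ± 1934 in control (SD, n = 3 each), with an average TNF effect of 0.11 (limma adjusted p = 1.0). The median average TNF effect was -0.25 over these 6 genes.

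Wisp2, the gene of the matrix protein CCN5, passed with the block. It was at 9994, 12787 and 12074 in SoxC_KO_TNF, against 18412, 16792 and 36421 in SoxC_KO, and at 14809, 11036 and 17023 in control_TNF, against 15686, 15382 and 22103 in control. The knockout libraries with TNF all lay below those without, as for 6.4% of all genes, and SoxC_KO replicate 3 was far above the rest. The log2 change was -0.96 in knockout cells (limma adjusted p = 0.357, and 0.0220 with the block) and -0.63 on average (0.284, and 0.0187 with the block). The blocked average was kept in 6 of 12 fits that left out 1 library, being lost without SoxC_KO_TNF replicate 1, control_TNF replicate 2 or 3, or any 1 of the 3 control libraries. The blocked call in knockout cells was kept in 8 of 12, being lost without replicate 1 or 3 of either knockout group. With the block within each genotype Wisp2 passed in neither (adjusted p = 0.0506 on average and 0.0631 in knockout cells). With the length and GC trend removed it passed with no block too (0.00368 and 0.0297).

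Of the 7 genes of IGFBP proteases and their inhibitors, all 7 were tested and Pappa passed with the block. Pappa was at 1769.5, 1389.5 and 567 normalized counts in SoxC_KO_TNF, against 2802, 3743 and 606 in SoxC_KO. It was at 977, 2105 and 384 in control_TNF, against 4578, 4202 and 983 in control. Each TNF library was below the one with the same number, by little for number 3 of the knockout, and the libraries numbered 3 were lowest in every group.

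The average log2 change of Pappa with TNF was -1.13 (SE 0.59, limma adjusted p = 0.752), and with the block the SE was 0.18 and the adjusted p 0.00277. It was -0.73 in knockout cells (adjusted p = 0.846, and 0.157 with the block) and -1.53 in control cells (0.998, and 0.00828 with the block). The blocked average call was kept in 12 of 12 fits that left out 1 library, and that in control cells in 9 of 12, being lost without control_TNF replicate 1 or 3 or control replicate 1. Both passed with the block within each genotype (adjusted p = 0.0110 and 0.0314), and with no block once the libraries numbered 3 were left out (0.0115 and 0.0444). Adamts1, a secreted protease gene and the one with the highest mean count of the list, had an average TNF effect of 0.11 (adjusted p = 1.0), and the list's median was -0.056.

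Of 10 genes for receptors and adaptors of insulin and IGF signalling, all tested, Grb10 passed with the block. Its protein is an adaptor that restrains the insulin and IGF1 receptors, and it is also 1 of the imprinted genes. Grb10 was at 1398, 1354 and 778 in SoxC_KO_TNF, against 1986, 2148 and 826 in SoxC_KO, and at 979, 1558 and 688 in control_TNF, against 2350.1, 2372 and 1038 in control. It was lower with TNF in all 6 pairs, with the least difference at number 3 of the knockout. The average log2 change was -0.62 (SE 0.33, limma adjusted p = 0.751, and 0.00949 with the block, kept in 12 of 12 fits that left out 1 library). In knockout cells it was -0.42 (0.845, and 0.201 with the block), and in control cells -0.82 (0.998, and 0.0300 with the block, kept in 6 of 12, lost without SoxC_KO_TNF replicate 1, control_TNF replicate 1 or 3, or any 1 of the 3 control libraries). With the block within each genotype the average passed (adjusted p = 0.0339) and the value in control cells did not (0.0950), and the average passed with no block once the libraries numbered 3 were left out (0.0189). Shc1, the adaptor gene with the highest mean count of the list, had an average TNF effect of 0.0081 (adjusted p = 1.0), and the list's median was -0.067.

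The 3 genes of proteins that bind the Igf2 mRNA, the 20 tested of 21 further imprinted genes and the 24 genes of the PI3K, AKT and FOXO pathway gave no other call with either fit. Their median average TNF effects were 0.018, -0.13 and -0.075 on the log2 scale. The gene with the highest mean count in each had an average TNF effect of 0.018 (Igf2bp2, which stabilises bound mRNAs), -0.15 (Gnas, an imprinted gene of a G protein subunit) and -0.15 (Akt1, a kinase gene downstream of the receptor), each with a limma adjusted p of 1.0. In the knockout comparisons and the interaction, 0 genes of the 6 lists were called with or without the block.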

How the data were processed

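The 12 libraries held poly(A) RNA, extracted with Trizol and read as paired ends on a NovaSeq, per the labels' protocols. The deposited values are log2 normalized counts of 1 table, with genes at or below 1 listed as 0, as the values show. They were made with DESeq on mm10, per the submitters' processing notes; the sources used here do not name the aligner, counter or strand setting. Raw read depth is not in the table, and the estimate given rests on low values of which 41.2 to 46.7% were whole multiples of 1 step. Counts of whole reads could thus not be restored, and no count model was used. Linear values had been assumed in the plan; the log2 values were raised back to normalized counts, with 0 kept at 0.

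Tests were run with limma 3.58.1 in R 4.3.3 on log2(normalized count + 1), with 1 mean per group, all 12 libraries and an intensity trend, over the 18139 genes at 10 or more in at least 3 libraries. P-values were adjusted by Benjamini-Hochberg over these genes, with a threshold of 0.05. The script was tested on simulated data. Gene lengths came from the reference annotation, which held 99.8% of the gene IDs. Other steps and plots used Python 3.11.15, with matplotlib 3.10.9.

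The members and gene lists were chosen with earlier results of these data known. Named are all members, the genes of a list called in a comparison or else the one of highest mean, and the 3 genes most like each member by Pearson r. Pappa, Grb10 and Wisp2, which were called only in alternative fits, were named after their values were seen.

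Replicate numbers come from the labels, which do not say what they share. Deviations from the group means correlated between same-numbered libraries at 0.340, 0.148 and 0.501 in the knockouts (SoxC_KO_TNF with SoxC_KO), 0.103, 0.550 and 0.715 in the controls (control_TNF with control), and 0.457, 0.515 and 0.707 between SoxC_KO and control, so the numbers were taken as pairs. Between SoxC_KO_TNF and control_TNF the values were 0.0537, 0.189 and 0.526, and the pairing was not accepted. These overlapped the values of the knockouts, so the correlations do not clearly set the accepted pairings apart. The block over all 4 groups uses that pairing too, so a block within each genotype was added.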

Additional observations from a re-analysis of the deposited data

How the results depend on the processing

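Of the 10 members, 0 were called with TNF in knockout cells, 0 in control cells and 1 on average (Igfbp3). With the replicate block the numbers were 1, 1 and 3, and with the block within each genotype 1, 1 and 1. With a mean of at least 50 required, 1 was called in control cells (Igfbp3). Without the 4 libraries numbered 3, 1 was called in knockout cells and 1 in control cells, with and without the block. Without the 2 libraries with liver transcripts 0 were called on average, and with the block 1 in control cells and 2 on average. Without SoxC_KO_TNF replicate 1 and SoxC_KO replicate 1, both high in muscle markers, 0 were called on average. SoxC_KO replicate 3, with a muscle marker sum of 1554, was kept in that fit. Chosen after seeing the data, removal of the length and GC trend with the block gave 3 in knockout cells, 2 in control cells and 4 on average. The block within genotype and the fits that join the block with left-out libraries were also chosen then. Leaving out each library in turn gave 0 in knockout cells, 0 to 1 in control cells and 1 on average, and with the block 0 to 4, 1 to 2 and 1 to 3. Other pseudocounts (0.5 and 5), no filter, median-of-ratios or quantile scaling, no intensity trend and fits to only the groups compared kept the number of members called. No knockout comparison called a member under any of the alternatives run, and the average TNF changes of Igfbp3, H19, Igf1r, Pappa, Grb10 and Wisp2 kept their sign in all 40. Smaller differences did not all do so. Among them, over up to 41 alternatives, the sign turned in 5 for Igfbp2 and 4 for Igfbp4 in control cells, in 12 for Igf2r, 13 for Igfbp6 and 2 for Igfbp5 in the average TNF effect, in 3 for Igfbp3 and 13 for H19 in the interaction, and in 16 for Igf1r in the average knockout effect.

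Over all genes, 53 were called in knockout cells, 58 in control cells and 212 on average, 505, 310 and 941 with the block, and 233, 161 and 567 with the block within each genotype. Without the libraries numbered 3 the counts were 186, 267 and 653, without the 2 libraries of replicate 1 high in muscle markers 1, 13 and 83, and without the liver libraries 10, 15 and 92. The length and GC trend removed gave 148, 144 and 490, and 910, 766 and 1698 with the block. No filter gave 35 in control cells. Fits to the groups compared alone called 3 genes in knockout cells and 0 in control cells. Leaving out 1 library gave 14 to 55, 5 to 84 and 118 to 253, and with the block 183 to 2229, 120 to 470 and 512 to 993. The cause of these differences was not tested. A difference of a member that missed the threshold is bounded only by its interval, and 3 libraries a group limit every test here.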
